A study of Mus musculus with 9 samples.

Results

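A set of 10 secreted host-defence genes were followed in mouse ear epidermis: the lipocalin Lcn2, the whey acidic protein (WAP) domain genes Slpi, Wfdc5 and Wfdc12, the beta-defensins Defb1, Defb3, Defb4, Defb6 and Defb14, and the cathelicidin Camp. They were taken by symbol from the deposited epidermal count table, in which all 10 were found once each among 52550 genes. All 9 epidermal libraries came from wild type C57BL/6 mice aged 8 weeks, stated in the study's methods to be male and of the substrain C57BL/6J, with 3 libraries in each of 3 groups. The control group, VAS+H2O, received Vaseline on the ear for 5 days and ddH2O by gavage for 10 days. The model group, IMQ+H2O, received imiquimod cream for 5 days in place of Vaseline, with the same ddH2O gavage. The IMQ+XYF group received imiquimod for 5 days and 200 µl of Xiao-Yin-Fang (XYF) decoction at 23.3 mg/g by gavage for 10 days. Gavage began 5 days before the topical treatment, so XYF was given both before and during imiquimod. Imiquimod activates Toll-like receptor 7 and raises a psoriasis-like dermatitis in mouse skin, and XYF is a mixture of medicinal herbs.

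Epidermal keratinocytes make a chemical barrier as well as a physical one. Beta-defensins are small cationic peptides held by disulphide bonds that disrupt microbial membranes, and some of them attract leukocytes through the receptor CCR6. Lipocalin 2 binds bacterial siderophores and so keeps iron from bacteria. SLPI and related WAP proteins inhibit serine proteases such as neutrophil elastase and the epidermal kallikreins. The cathelicidin CAMP is cut by proteases into an antimicrobial peptide, and in mice it is stored in large amounts in neutrophil granules. In keratinocytes, IL-17, IL-22, IL-1 and IL-36 signals are known inducers of several of these genes, with the transcription factors NF-kappaB, IkappaB-zeta, C/EBP and STAT3 downstream, and psoriatic skin is known for high levels of them.

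Total counts were 30298275 to 64771160 per library, so a count of 3, used here as the floor of detection, stood for 0.0463 to 0.0990 CPM (counts scaled to an equal library total). Floors and intervals from counts cover counting error only. Neither the labels nor the methods say whether the libraries of a group came from separate animals. The methods state only that RNA was taken from ear sheets of 2 mice. The study's figure legends give n = 3 for each group without naming the unit. The p-values thus measure the spread between these libraries, which may be partly technical. The 8 keratinocyte markers (Krt5, Krt14 and others) summed to 39410 to 62170 CPM, the largest sum of the marker lists in each library. Libraries also differed in other tissue. The 6 dermal fibroblast markers summed to 624 CPM in VAS+H2O replicate 2 against 44.7 to 202 CPM in the other 8 libraries, and the 5 cartilage markers summed to 358 CPM there against 29.8 to 166 CPM. Both sums also differed by group. The fibroblast sum was 44.7 to 51.7 CPM in IMQ+H2O, 69.7 to 202 in IMQ+XYF and 66.3 to 624 in VAS+H2O. The cartilage sum was 29.8 to 69.4 CPM in IMQ+H2O, 107.5 to 166 in IMQ+XYF and 151 to 358 in VAS+H2O. A part of this tissue in the differences of the members was not tested. IMQ+H2O replicate 3 and IMQ+XYF replicate 1 had the highest sums of 12 neutrophil markers, 222 and 164 CPM, against 74.4 to 108 CPM in the other 7 libraries. In bulk tissue, fewer cells of a type and less RNA per cell cannot be told apart.

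The stretches of DNA before these genes are shown because the members differ widely in how far their transcripts moved, and because the upstream stretches of Defb6 and Defb3 are partly alike. RefSeq (GRCm38.p6) gave a promoter window for 6 of the 10 genes, namely Lcn2, Slpi, Wfdc12, Defb6, Defb3 and Camp. In the 250 bases before the transcript start, both strands were searched for 5 motifs. The C/EBP motif TTGCNNAA was found in 5 of the 6 windows, all but that of Camp, and in 9.56% of 32851 windows of the same length before all listed transcripts. The windows of 4 genes are printed 5′ to 3′ on the strand of the gene, up to the first base that any annotated transcript of the gene holds in an exon. They lie at chr2:164356508-164356757 (minus strand) for Slpi, chr2:164190609-164190808 (minus strand) for Wfdc12, chr8:19225228-19225477 (plus strand) for Defb6 and chr8:19293111-19293359 (plus strand) for Defb3. Capitals mark the motif matches, which are of C/EBP except for the run of 10 capitals in Defb6, which is of NF-kappaB:
Slpi: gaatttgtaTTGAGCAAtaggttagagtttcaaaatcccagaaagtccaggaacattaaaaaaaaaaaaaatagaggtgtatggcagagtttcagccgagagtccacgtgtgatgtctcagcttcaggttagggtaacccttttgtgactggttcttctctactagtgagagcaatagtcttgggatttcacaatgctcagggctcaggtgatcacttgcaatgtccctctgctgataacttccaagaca
Wfdc12: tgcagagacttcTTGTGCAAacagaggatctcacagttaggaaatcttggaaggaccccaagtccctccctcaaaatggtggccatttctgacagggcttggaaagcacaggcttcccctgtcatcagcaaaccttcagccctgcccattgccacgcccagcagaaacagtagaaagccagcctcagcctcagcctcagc
Defb6: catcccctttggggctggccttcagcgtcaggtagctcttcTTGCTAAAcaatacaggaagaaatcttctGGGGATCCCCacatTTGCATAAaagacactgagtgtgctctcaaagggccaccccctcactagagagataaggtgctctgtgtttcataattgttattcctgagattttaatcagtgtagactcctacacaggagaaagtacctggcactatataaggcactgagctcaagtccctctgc
Defb3: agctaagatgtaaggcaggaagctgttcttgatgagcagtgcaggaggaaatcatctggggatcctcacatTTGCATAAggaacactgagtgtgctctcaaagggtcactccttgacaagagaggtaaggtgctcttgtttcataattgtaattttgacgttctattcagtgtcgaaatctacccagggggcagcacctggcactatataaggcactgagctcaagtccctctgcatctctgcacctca

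The first bases of the C/EBP matches lie 241 bases before the start in Slpi, 238 in Wfdc12, 216 in Lcn2, 209 and 166 in Defb6 and 179 in Defb3. The NF-kappaB match of Defb6 begins at 180 and overlaps no C/EBP match. An NF-kappaB match was found in 7.25% of all windows and in none of the other 5 windows here. None of the 6 windows held AP-1 (TGANTCA, 6.75% of all windows), STAT (TTCNNNGAA, 7.02%) or TATAAA (12.37%). Only the exact letters TATAAA were searched for a TATA box. The printed windows of Defb6 and Defb3 hold the near form TATATAA, which was not part of the search. The Slpi window lies within the annotated span of the gene, in an intron of a longer transcript. The Lcn2 window lies inside an exon of a longer annotated transcript and is not printed. Of the Camp window, only the first 89 bases lie before an annotated exon, and it is not printed either. Defb1, Defb4, Defb14 and Wfdc5 had no window, so matches were not set against how far the transcripts moved. Over an alignment of the 250 bases, Defb3 and Defb6 were identical at 72.5% of the columns, with a longest shared run of 40 bases, against 40.7% to 47.5% for the other 14 pairs. The later of the 2 C/EBP matches of Defb6 and the match of Defb3 have the same letters. Both lie outside the shared run of 40 bases. A match of letters is a description of the sequence, and binding was not measured.

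**Figure D1:**
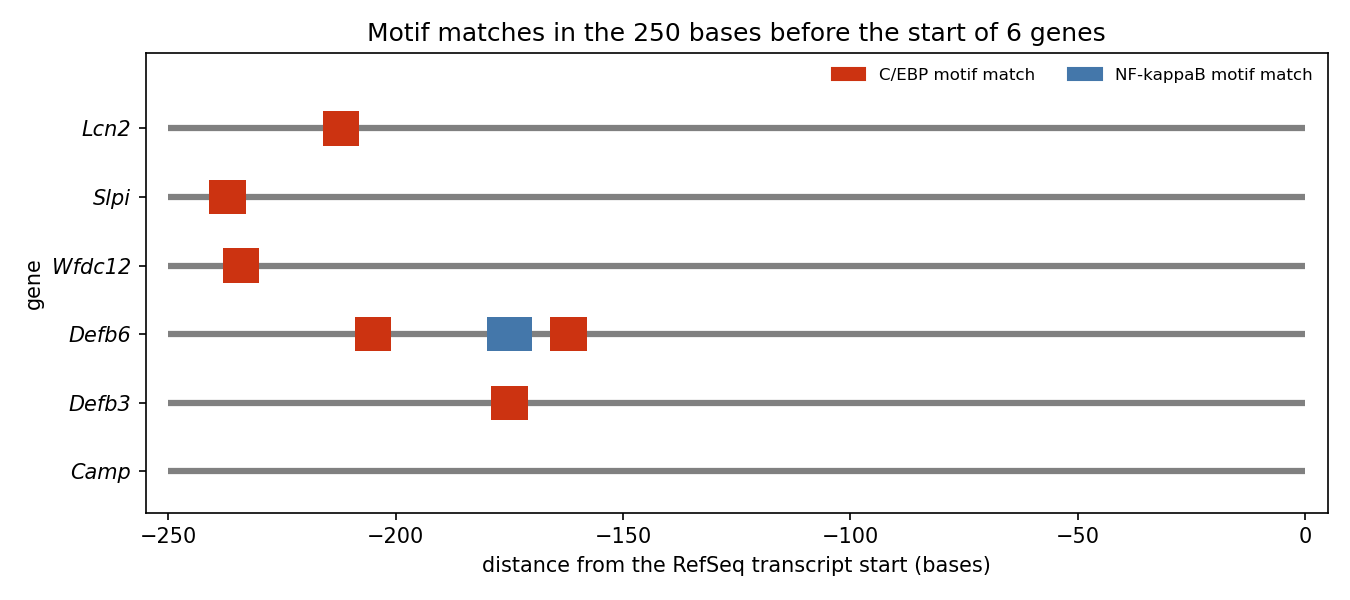
Each line is the 250 bases before the RefSeq start of 1 gene, with the distance from the start in bases on the horizontal axis. Boxes mark matches of the C/EBP motif (red) and the NF-kappaB motif (blue). The 5 windows with a C/EBP match have it between 241 and 159 bases before the start, and the Camp window has no box.

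Levels per length set the scale of the response. In CPM per kb of exon, Defb6 stood first in every group, at 168 ± 62.8 (SD, n = 3) for VAS+H2O, 677 ± 30.1 for IMQ+H2O and 720 ± 71.6 for IMQ+XYF, and no library of another member reached it. Defb6 alone made up 64.9% to 79.1% of the summed per-kb level of the 10 genes. In VAS+H2O, Defb1 (28.5 ± 5.62 CPM per kb) and Wfdc5 (28.2 ± 3.72) followed and overlapped each other. Wfdc12 (3.17 ± 0.759) overlapped Slpi (2.93 ± 0.127), Defb14 (2.35 ± 0.153) and Lcn2 (0.684 ± 0.215) lay apart below them, and Defb3, Camp and Defb4 were at or near 0. In IMQ+H2O the order became Defb6, Slpi (75.4 ± 18.9), Defb1 (50.5 ± 5.33), Wfdc5 (44.2 ± 6.65), Lcn2 (28.4 ± 15.0), Defb14 (18.0 ± 13.7), Wfdc12 (10.7 ± 4.87), Defb4 (3.51 ± 2.39), Defb3 (3.07 ± 3.11) and Camp (0.131 ± 0.122). From Defb1 down to Defb3 each gene overlapped its neighbour there. Slpi thus moved above Defb1 and Wfdc5, and Lcn2 above Wfdc12 and Defb14. In IMQ+XYF the order of the first 7 genes was the same as in IMQ+H2O.

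Summed over the 10 genes, the level was 139 to 180 CPM in the VAS+H2O libraries, 492 to 606 CPM in the IMQ+H2O libraries and 520 to 562 CPM in the IMQ+XYF libraries. Of the gain of 390 CPM from VAS+H2O to IMQ+H2O, Defb6 made up 42.1%, Slpi 21.9%, Lcn2 18.6%, Wfdc5 9.53% and Defb1 4.92%. The remaining 5 genes added under 6 CPM each.

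**Figure D2:**
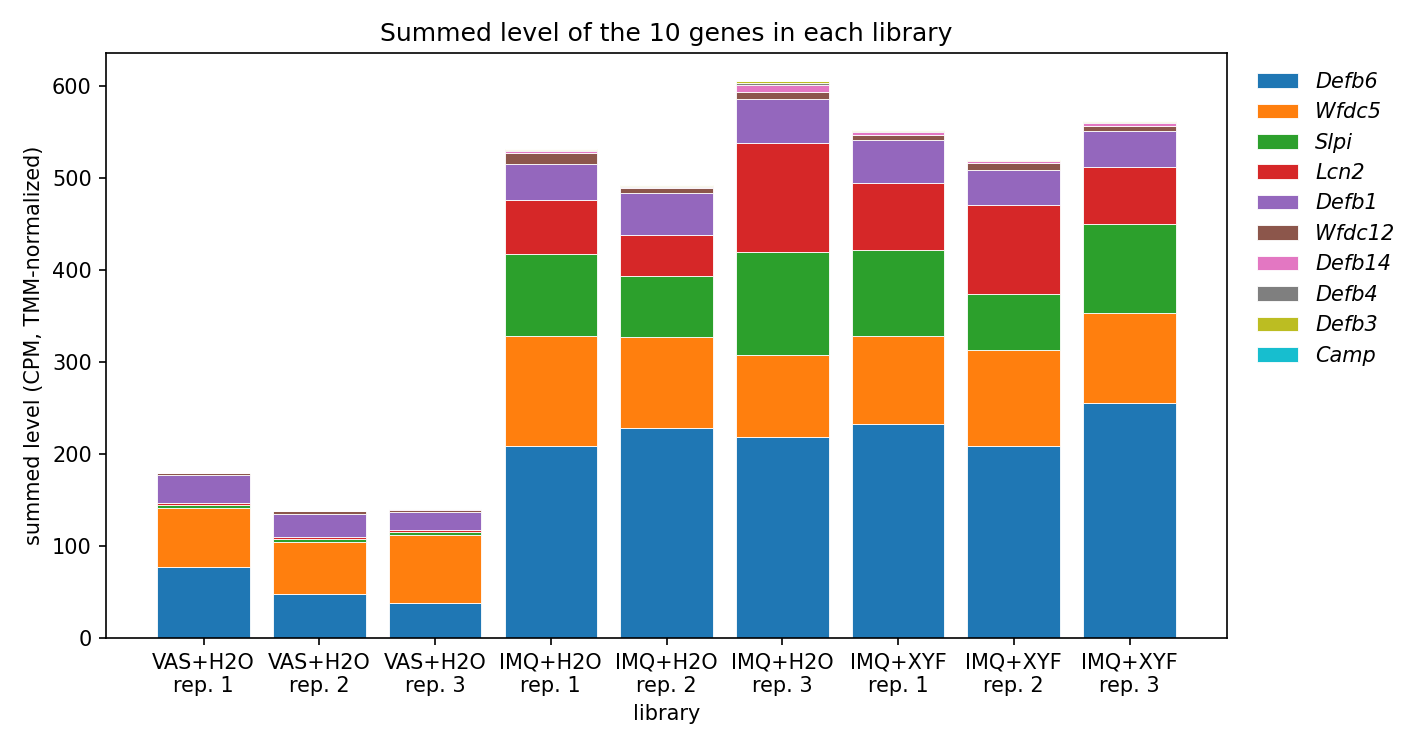
Stacked bars give the level of each gene in CPM (vertical axis, TMM-normalized, from 0) in each of the 9 libraries. The 3 VAS+H2O bars reach 139 to 180 CPM, and the 6 imiquimod bars reach 492 to 606 CPM, with Defb6 as the largest block in each of those 6.

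The first comparison, IMQ+H2O with VAS+H2O, asked how these genes differ between imiquimod cream and Vaseline. No group received the cream without imiquimod, so the drug and its cream base cannot be told apart. Of the 10 genes, 9 were higher in every IMQ+H2O library than in every VAS+H2O library, where 23.1% of the 18492 expressed genes were, and Camp was the exception. Differentially expressed genes (DEGs) were those with an adjusted p of 0.05 or less and a change of at least 2-fold in edgeR's quasi-likelihood test. Slpi, Lcn2, Defb4, Defb6, Defb14, Defb3 and Wfdc12 rose. So 7 of the 9 members tested were DEGs, where 3.64% of all genes tested were DEGs in that direction. Defb4 and Defb3, at or near 0 counts in the controls, passed the low-count filter only through the IMQ+H2O libraries. A rise was thus nearly fixed for these genes once tested. With at least 10 counts required in every library they were not tested, and 5 members were called. Wfdc5 and Defb1 passed the adjusted p alone, as did 12.7% of all genes in that direction, but not the fold threshold. Wfdc5 no longer passed it in edgeR without VAS+H2O replicate 1 (adjusted p = 0.0717), VAS+H2O replicate 2 (0.0741) or IMQ+H2O replicate 1 (0.0506). Defb1 no longer passed it without VAS+H2O replicate 2 (0.0620) or IMQ+H2O replicate 3 (0.0512). The median log2 fold change was 2.92 over the 9 members and -0.03 over all genes tested, and the median is the same with Defb4 at its lower bound. Since the members were picked with results of these data known, the count is a description.

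Slpi (chr2:164354070-164389095, minus strand, 6 merged exon blocks over its annotated transcripts) encodes secretory leukocyte protease inhibitor, which has a pair of WAP domains. Its level was 3.60, 3.46 and 3.30 CPM in the VAS+H2O libraries, 88.8, 66.6 and 111 CPM in the IMQ+H2O libraries, and 93.2, 60.8 and 96.5 CPM in the IMQ+XYF libraries. The control libraries lay within a factor of 1.09 of each other, and every imiquimod library lay far above them. Slpi rose 25.5-fold in IMQ+H2O (95% interval 17.9 to 36.3; log2 fold change 4.67 ± 0.21 SE, edgeR adjusted p = 0.00148).

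Wfdc5 and Wfdc12 (chr2:164176327-164182742 and chr2:164189231-164190608, minus strand) encode further WAP-domain proteins and lie near Slpi on chromosome 2, and Wfdc12 ends 163 kb from the annotated span of Slpi. Wfdc5 was at 64.2, 57.4 and 74.5 CPM in the VAS+H2O libraries, at 120, 98.5 and 89.5 CPM after imiquimod with water and at 96.0, 104 and 97.6 CPM in IMQ+XYF. It was already abundant in control epidermis, and its difference of 1.55-fold (log2 fold change 0.64 ± 0.14 SE, edgeR adjusted p = 0.0222) stayed under 2-fold. Wfdc12 was at 2.03, 3.13 and 2.21 CPM in the controls, at 12.3, 4.76 and 7.83 CPM in IMQ+H2O and at 5.34, 7.71 and 5.27 CPM in IMQ+XYF. It rose 3.34-fold (log2 fold change 1.74 ± 0.37 SE, edgeR adjusted p = 0.0216), with a spread of 2.58 times between the lowest and highest IMQ+H2O library. The call of Wfdc12 was lost in 3 of the 6 fits that each left out 1 library, namely VAS+H2O replicate 1 (adjusted p = 0.0722), VAS+H2O replicate 3 (0.0563) and IMQ+H2O replicate 3 (0.0520). The antisense gene A730032A03Rik on the other strand shares 16.13% of the exon bases of Wfdc12 and 3.49% of those of Wfdc5. It had 17 to 65 counts per library against 77 to 355 for Wfdc12, and the strand setting of the counting is not given in the sources used here.

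Lcn2 (chr2:32384633-32388252, minus strand, 5 merged exon blocks over its annotated transcripts) encodes lipocalin 2. Its level was 2.33, 1.85 and 1.21 CPM in the VAS+H2O libraries, 59.3, 45.1 and 119 CPM in the IMQ+H2O libraries, and 73.3, 96.97 and 62.6 CPM in the IMQ+XYF libraries. The highest control library lay below the lowest imiquimod library by over a factor of 10, and IMQ+H2O replicate 3 was 2.65 times the lowest of its group. Lcn2 rose 40.7-fold (95% interval 18.9 to 87.8; log2 fold change 5.35 ± 0.47 SE, edgeR adjusted p = 0.00355). Neutrophils also carry lipocalin 2, so their markers are given beside it. Csf3r and Trem1, genes of neutrophil surface receptors, had 5 and 3 counts in IMQ+H2O replicate 1 and 33 and 34 counts in replicate 2, against 1642 and 710 in replicate 3. Lcn2 had 1716, 1732 and 5149 counts in the same 3 libraries. Without replicate 3, the log2 fold change of Lcn2 was 4.83.

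Defb6 (chr8:19225478-19228209, plus strand, 2 exons) had the highest level of the defensins. It was at 77.1, 47.6 and 38.2 CPM in the controls, at 209, 228 and 219 CPM in IMQ+H2O and at 233, 210 and 256 CPM in IMQ+XYF. The control libraries varied, with a coefficient of variation of 37.4%, while the IMQ+H2O libraries varied by 4.44%. Defb6 rose 3.99-fold (95% interval 2.66 to 5.99; log2 fold change 2.0 ± 0.25 SE, edgeR adjusted p = 0.00723).

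Defb14 (chr8:19194357-19195212, plus strand), regarded as the mouse counterpart of human beta-defensin 3, was at 0.466, 0.516 and 0.459 CPM in VAS+H2O. It was at 2.42, 1.72 and 6.85 CPM in IMQ+H2O and at 3.36, 1.51 and 2.85 CPM in IMQ+XYF. The control values were tight and the imiquimod values wide, with IMQ+H2O replicate 3 at 3.99 times the lowest of its group. Defb14 rose 7.56-fold (95% interval 2.98 to 19.2; log2 fold change 2.92 ± 0.57 SE, edgeR adjusted p = 0.0168), and without IMQ+H2O replicate 3 the log2 fold change was 2.08. The call was lost without VAS+H2O replicate 1 (adjusted p = 0.0584) and without VAS+H2O replicate 2 (0.0578).

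Defb4 (chr8:19198706-19201545, plus strand), a counterpart of the inducible human beta-defensin 2, went from no counts at all to a low level. It had 0 counts in all 3 VAS+H2O libraries, 26, 40 and 123 counts in IMQ+H2O and 63, 18 and 39 counts in IMQ+XYF. Against a floor of 3 counts per control library, averaged over the group at 0.0834 CPM, Defb4 was at least 18.7-fold higher in IMQ+H2O and at least 10.5-fold higher in IMQ+XYF. Without IMQ+H2O replicate 3 the first bound was 11.2-fold. The edgeR adjusted p was 0.0125 and 0.00401. Defb3 (chr8:19293360-19295291, plus strand) behaved alike. It had 0, 0 and 4 counts in the controls, 9, 15 and 79 counts in IMQ+H2O and 40, 15 and 32 counts in IMQ+XYF. All imiquimod libraries lay above all control libraries. In CPM per kb, Defb3 and Defb4 overlapped in both imiquimod groups. The log2 fold change of Defb3 in IMQ+H2O was 4.46 ± 1.24 SE (edgeR adjusted p = 0.0447). The value rests on 4 counts in 1 control library and on IMQ+H2O replicate 3, which held 79 of the group's 103 counts. It was 3.17 without IMQ+H2O replicate 3, and 8.04 without VAS+H2O replicate 3, where the controls are at 0 and the fit depends on the prior count. The Defb3 call did not hold in any of the 6 fits that left out 1 library, where the adjusted p was 0.0532 to 0.135, nor without the low-count filter (0.0621).

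Defb1 (chr8:21776599-21795185, plus strand) lies 2480 kb from Defb3 and is known as a constitutive epithelial defensin. It was at 29.9, 24.5 and 20.1 CPM in the controls, at 38.8, 45.6 and 47.6 CPM in IMQ+H2O and at 46.9, 38.4 and 39.4 CPM in IMQ+XYF. The groups with imiquimod lay above the control group without overlap, but the difference of 1.76-fold (95% interval 1.34 to 2.29; edgeR adjusted p = 0.0182) did not reach the threshold of 2-fold. The 4 defensins of the nearer cluster on chromosome 8, Defb14, Defb4, Defb6 and Defb3, lie 3.49, 23.9 and 65.2 kb apart in that order. All 4 were DEGs, of which Defb4 and Defb3 passed the low-count filter only through the imiquimod libraries. The defensin transcripts are partly alike. Defb3 and Defb6 were identical at 61.9% of aligned columns and Defb4 and Defb6 at 58.8%. The longest run shared by any pair was 33 bases, between Defb3 and Defb4. Only a read lying wholly within such a run would match both genes letter for letter, and read placement was not tested.

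Camp (chr9:109847379-109849617, minus strand) had 3, 3 and 0 counts in the controls, 0, 7 and 5 counts in IMQ+H2O and 7, 0 and 2 counts in IMQ+XYF. It was at or near the floor in all 9 libraries, with overlapping groups, did not pass the low-count filter and was not tested.

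**Figure D3:**
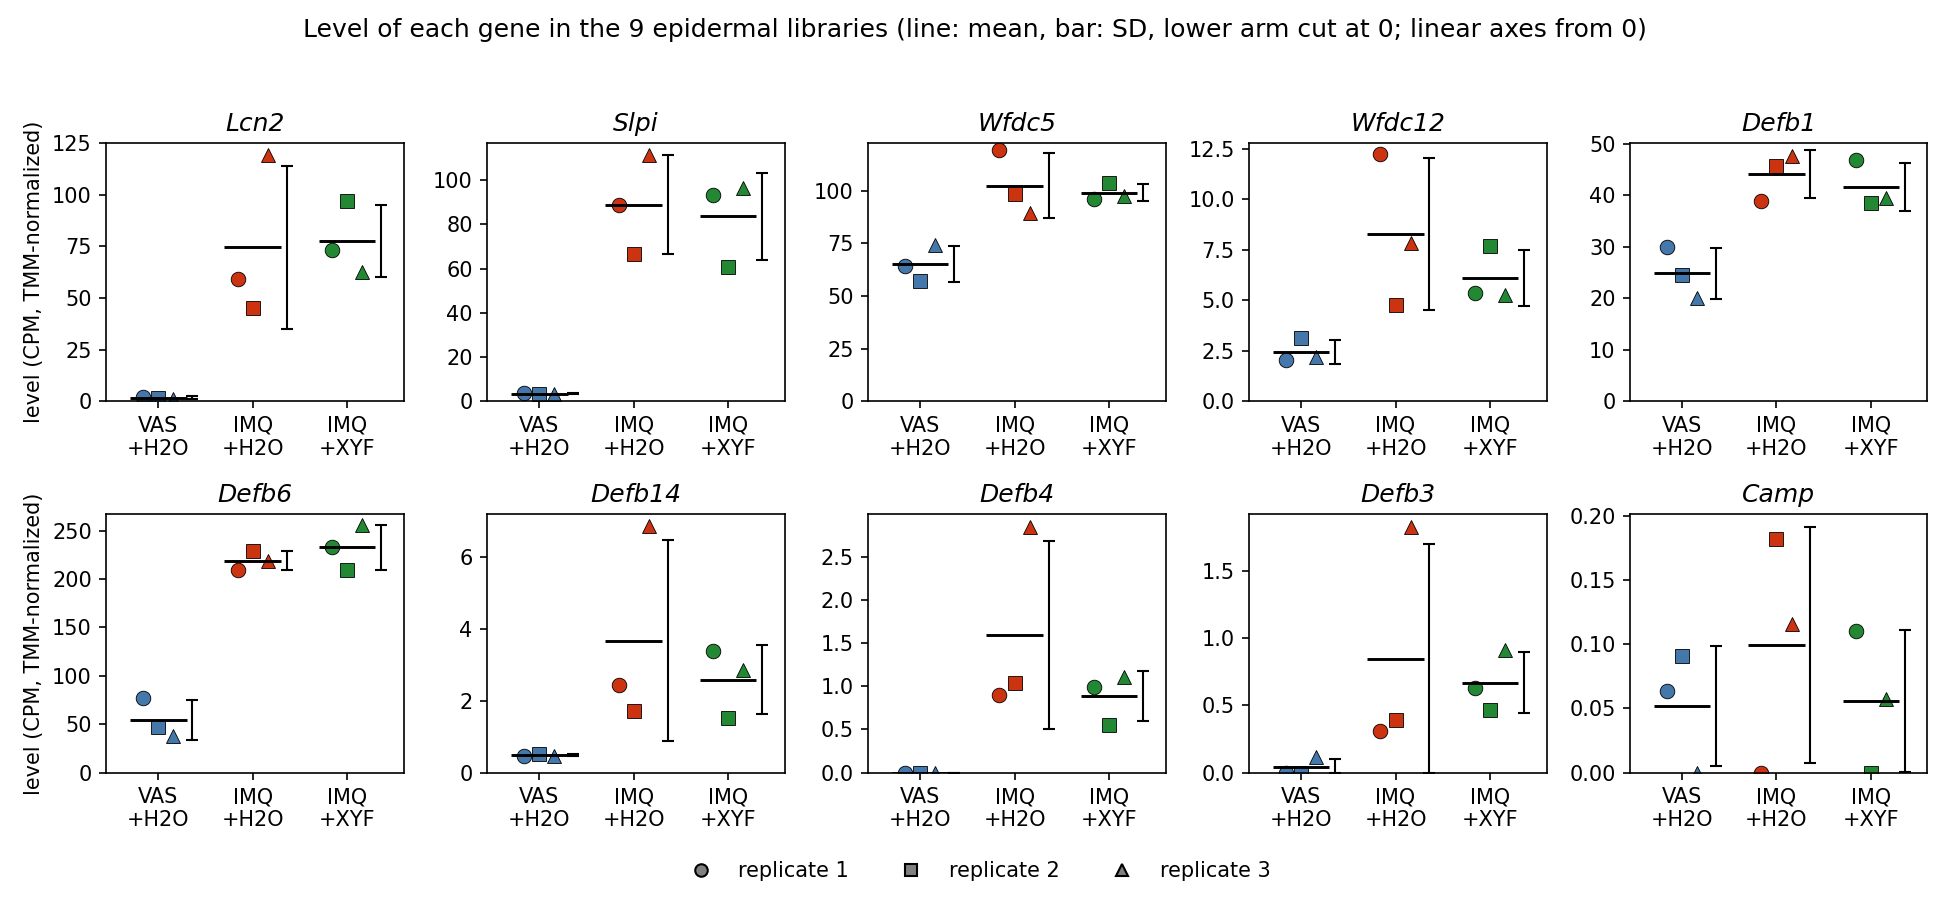
Each panel gives 1 gene, with the level in CPM (TMM-normalized, linear from 0) on the vertical axis and the 3 groups on the horizontal axis. Symbols are the 3 libraries of a group, lines their means and bars their SD. In 9 panels all imiquimod libraries lie above all VAS+H2O libraries, and in the Camp panel the groups overlap below 0.2 CPM.

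The second comparison, IMQ+XYF with IMQ+H2O, asked whether XYF alters the response to imiquimod. No member was a DEG, and none passed an unadjusted p of 0.05, while 966 of 17793 genes did. Across all genes 5 were DEGs by edgeR (0.0281%) and 129 by DESeq2, which called 0 members as well. For none of the 10 genes did the groups separate, where 10.7% of the expressed genes separated in either direction. The median log2 fold change was -0.08 over the 9 members and 0.00 over all genes. All 9 adjusted p-values were 0.9999 by edgeR.

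The intervals show how much of a difference these libraries could have missed. For Defb6 the ratio of IMQ+XYF to IMQ+H2O was 1.07 (95% interval 0.921 to 1.24), for Wfdc5 0.970 (0.807 to 1.17) and for Defb1 0.949 (0.780 to 1.16), so for these 3 abundant genes a change of 2-fold in either direction lies outside the interval. For Slpi it was 0.944 (0.641 to 1.39) and for Lcn2 1.04 (0.578 to 1.89), which likewise leave out 2-fold changes. The intervals of Wfdc12 (0.741, 0.420 to 1.31), Defb14 (0.707, 0.284 to 1.76), Defb3 (0.781, 0.247 to 2.47) and Defb4 (0.557, 0.239 to 1.30) take in a fall to below 0.5. A fall of that size is thus not excluded for these genes, and for Defb3 a 2-fold rise is not excluded either. The means of Defb4, Defb14 and Defb3 rest on IMQ+H2O replicate 3, the highest library of the 6 for each. Without it the log2 fold change of Defb14 went from -0.50 to 0.33 and that of Defb3 from -0.36 to 0.92, and that of Defb4 went from -0.84 to -0.12. With both libraries rich in neutrophil transcripts left out, an alternative chosen after seeing the data, no member was called and the log2 fold change of Lcn2 was 0.61 (edgeR adjusted p = 0.638).

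The third comparison, IMQ+XYF with VAS+H2O, shares the control libraries with the first and the XYF libraries with the second, so it is no independent repeat. Again 9 of the 10 genes were higher in every library (24.8% of expressed genes) and 7 of the 9 tested were DEGs, where 4.58% of all genes were DEGs in that direction and 16.7% passed the adjusted p alone. The 7 were Slpi, Lcn2, Defb4, Defb6, Defb14, Defb3 and Wfdc12. Of these, Defb4 and Defb3 passed the low-count filter only through the IMQ+XYF libraries. Lcn2 rose 42.7-fold (edgeR adjusted p = 0.000216) and Slpi 24.2-fold (0.000145). Defb6 rose 4.28-fold (0.00231), Defb14 5.37-fold (0.00382) and Wfdc12 2.49-fold (0.00981). Wfdc5 and Defb1 were again under 2-fold, at 1.52-fold and 1.67-fold. The libraries of this group lay closer together than those of IMQ+H2O for Lcn2 (coefficient of variation 22.7% against 52.8%), Defb14 (37.1% against 76.0%), Defb4 (33.03% against 68.1%) and Defb3 (34.0% against 101%), the genes for which IMQ+H2O replicate 3 stands high. Wfdc5 (4.09% against 15.1%) and Wfdc12 (22.7% against 45.6%) went the same way, Slpi was nearly equal (23.6% against 25.1%), and Defb1 (11.1% against 10.6%) and Defb6 (9.94% against 4.44%) went the other way. These differences in spread were not tested.

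**Figure D4:**
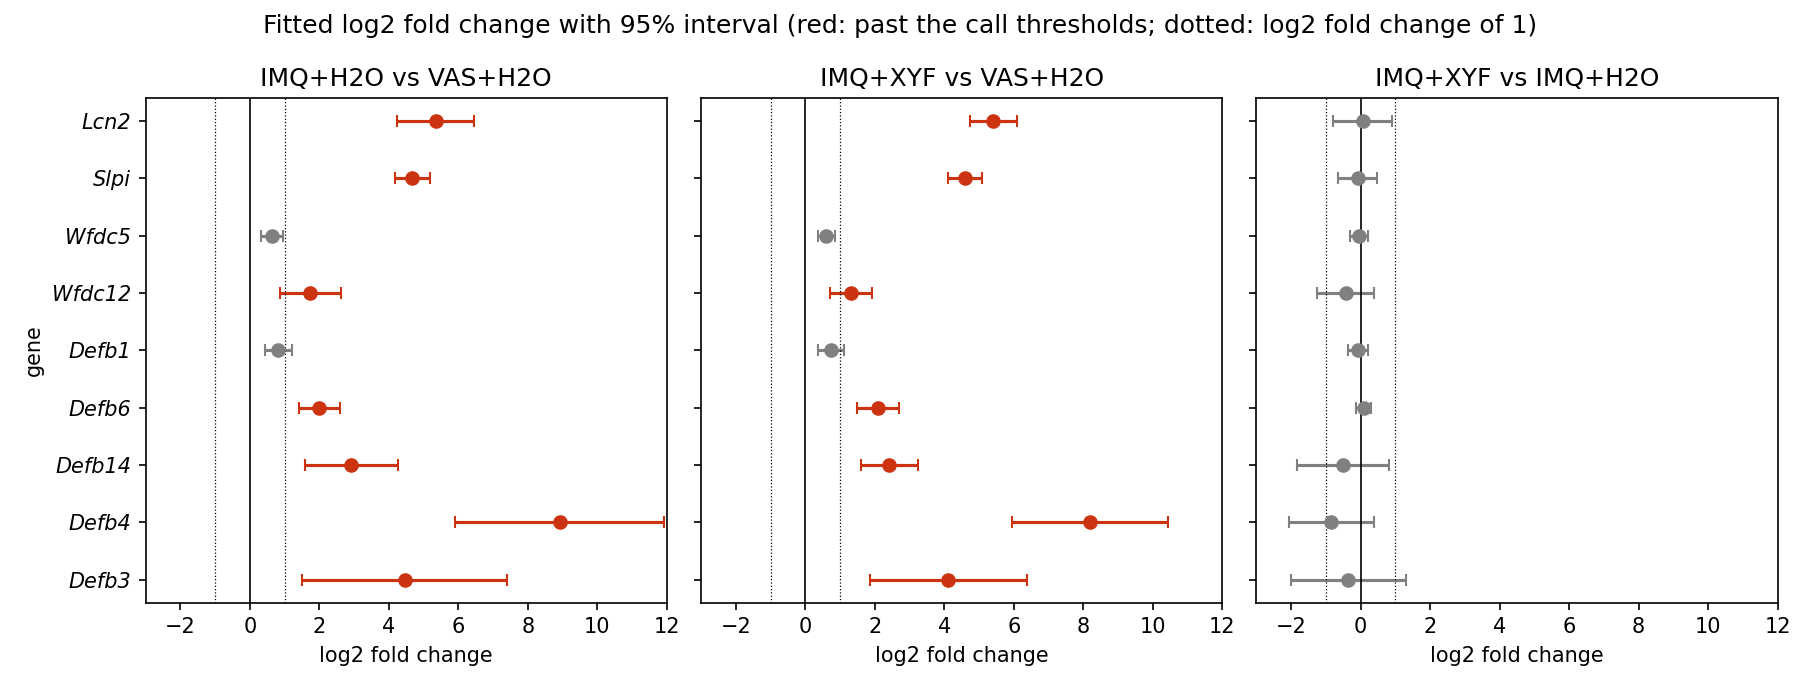
Points are fitted log2 fold changes of the 9 tested genes and bars their 95% intervals, in 3 panels for the 3 comparisons. Red marks genes past both thresholds, and dotted lines a log2 fold change of 1 in either direction. Both comparisons with VAS+H2O have 7 red points, and in IMQ+XYF against IMQ+H2O all 9 intervals take in 0. The Defb4 points of the 2 comparisons with VAS+H2O depend on the prior count, since its control libraries are at 0.

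The members did not move by 1 common factor between libraries of a group. IMQ+H2O replicate 3 was the highest of its group for 6 of the 9 tested genes (Lcn2, Slpi, Defb1, Defb3, Defb4 and Defb14) and the lowest for Wfdc5. For Defb6 it lay between the other two, and for Wfdc5 and Wfdc12 replicate 1 was highest. The same library had the highest sum of the 4 activated keratinocyte keratins Krt6a, Krt6b, Krt16 and Krt17, 13610 CPM against 4297 and 6012 CPM in its group, as well as the highest neutrophil sum. IMQ+XYF replicate 1, the other library rich in neutrophil transcripts (1459 Csf3r counts), was the highest of its group for Defb1 and Defb14 only. Of the 12 neutrophil markers, Elane was at 0 in all 9 libraries, Ltf, Ly6g, Ngp and Mpo had at most 22 counts in any library, and Cxcr2 and Il1r2 were already at 350 counts or more in every control library. The part of these cells in the spread of the members was not tested.

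**Figure D5:**
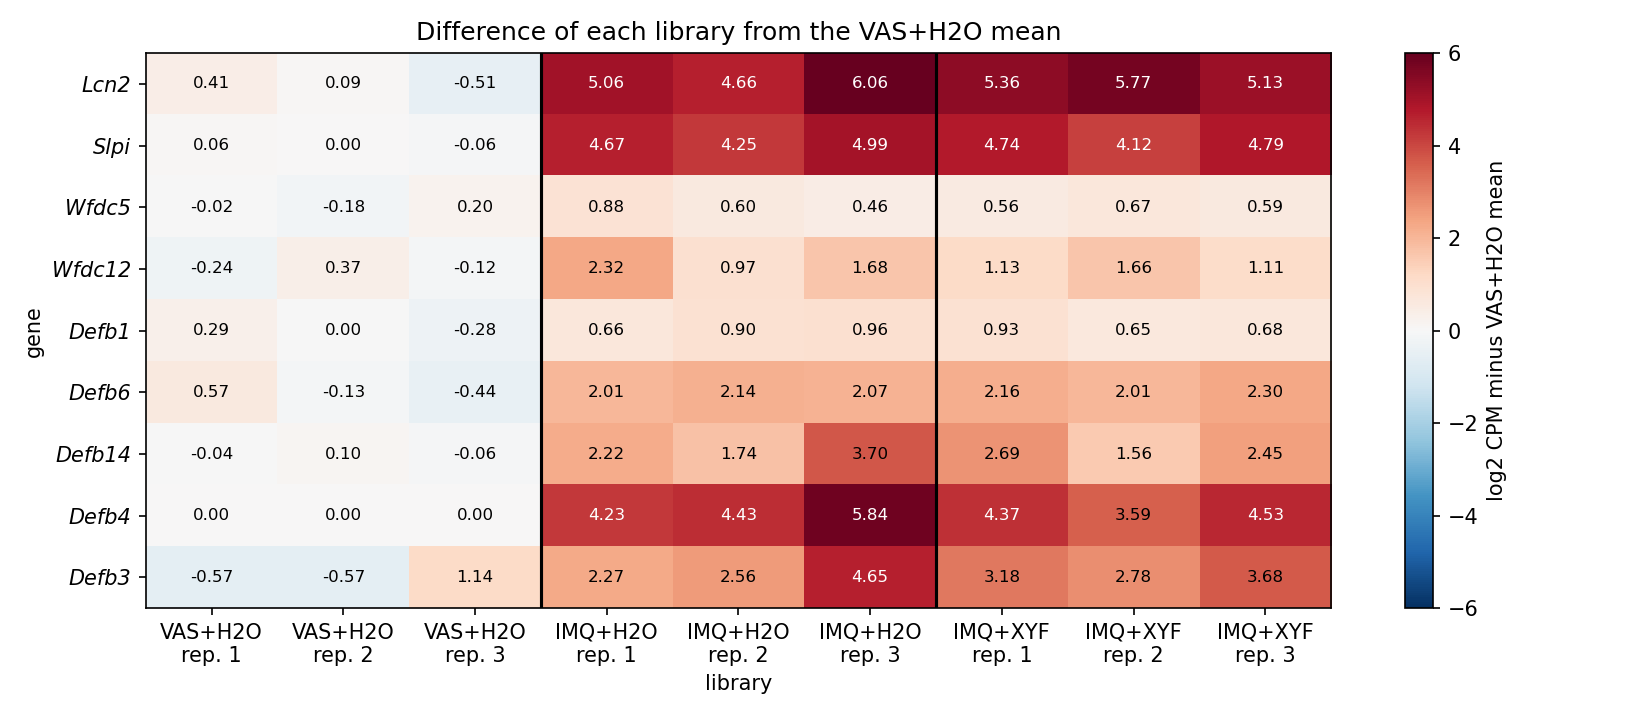
Each cell gives the log2 CPM (prior count of 2) of 1 gene in 1 library minus the gene's mean over the VAS+H2O libraries. The size of the Defb4 and Defb3 values depends on that prior count. Red is above that mean and blue below. IMQ+H2O replicate 3 has the highest value of the 9 libraries for Lcn2, Slpi, Defb1, Defb14, Defb4 and Defb3, but not for Defb6, Wfdc5 or Wfdc12.

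By the root mean square (RMS) difference of log2 profiles over the 9 libraries, each member was set beside the 14763 other genes with a mean of at least 1 CPM. The nearest profiles to Lcn2 were those of Stfa3, a stefin, and the keratin Krt16 (RMS 0.43 and 0.48 log2 units). Those nearest to Slpi were of Gsta4 and the chemokine Ccl20 (0.42 and 0.45). Defb14 lay nearest to the late cornified envelope gene Lce3d and to Hmga2 (0.26 and 0.30). Defb6 lay nearest to the quinone reductase gene Nqo1 and to Smpdl3b (0.28 and 0.30), and Wfdc12 to Acot5 and Ppif (0.23 and 0.29). The weakly changed genes had the closest matches, Wfdc5 with Gsdma and Ces2f (0.08 and 0.09) and Defb1 with Afap1l1 and Gm7809 (0.10 and 0.12). Among the members themselves the closest pair was Defb1 and Wfdc5 (0.31). No neighbours are given for Defb4 and Defb3, whose control libraries are at or near 0, since their profiles then depend on the prior count. These distances share the same libraries and favour genes that changed little.

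Of 38 other beta-defensin genes in the table, 4 had any count and none passed the low-count filter. A WAP list of 20 other genes held every other Wfdc symbol plus Eppin, Wap, Grn and Spint4. Grn and Spint4 are not WAP-domain genes. Of the list, 6 were tested between IMQ+H2O and VAS+H2O, and 0 rose and 2 fell. Among all genes tested, 4.04% were DEGs in the lower direction. Wfdc3 had 364, 216 and 246 counts in VAS+H2O against 89, 143 and 164 in IMQ+H2O, and its log2 value fell by 1.02 (edgeR adjusted p = 0.0114). Wfdc21 fell by 1.0 on the log2 scale (0.0173), from 22.3 ± 3.0 to 11.2 ± 2.55 CPM (SD, n = 3). The median log2 fold change of the 6, which include Grn at 0.15, was -0.43. In IMQ+XYF against VAS+H2O, 7 were tested and none was a DEG by edgeR (2 passed an unadjusted p of 0.05). Wfdc21 was again lower there, with a log2 fold change of -0.92 (adjusted p = 0.00641), just under 2-fold.

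Of 20 other antimicrobial effector genes, 10 were tested between IMQ+H2O and VAS+H2O, 5 rose and none fell by the 2 thresholds, with a median log2 fold change of 1.81. The shares over all genes tested were 3.64% higher and 4.04% lower. S100a8 and S100a9, whose products form calprotectin, rose from 1.46 ± 0.587 to 410 ± 497 CPM and from 3.66 ± 1.28 to 448 ± 524 CPM (SD, n = 3; edgeR adjusted p = 0.00890 and 0.00978). The peptidoglycan recognition protein genes Pglyrp3, Pglyrp2 and Pglyrp4 rose by log2 fold changes of 2.79, 2.24 and 1.45 (edgeR adjusted p = 0.00171, 0.0214 and 0.00299). The 2 calprotectin genes spread far more between IMQ+H2O libraries than Slpi did, with 3042, 5439 and 42441 counts of S100a8 against 2569, 2562 and 4808 of Slpi. The same 5 genes were the ones called in IMQ+XYF against VAS+H2O.

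Of 14 genes of receptors, partners and target proteases, 7 were tested between IMQ+H2O and VAS+H2O, and 0 rose and 1 fell, with a median log2 fold change of 0.52. Over all genes tested, 3.64% rose and 4.04% fell by the same thresholds. Slc22a17, which encodes a receptor of lipocalin 2, fell by 1.33 on the log2 scale, from 21.3 ± 4.58 to 8.53 ± 1.17 CPM (SD, n = 3; edgeR adjusted p = 0.00991). Lcn2 and its receptor gene thus moved in opposite directions. Tlr2, a sensor of bacterial lipoproteins, rose in IMQ+XYF against VAS+H2O (log2 fold change 1.72 ± 0.41 SE, adjusted p = 0.0214) and had a log2 fold change of 1.44 in IMQ+H2O against VAS+H2O (adjusted p = 0.0631). Ccr6, the receptor through which beta-defensins attract cells, had 0 counts in all 9 libraries, as had the elastase gene Elane.

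Of 24 genes of the IL-17, IL-22 and IL-36 inducer list, 21 were tested between IMQ+H2O and VAS+H2O, and 4 rose and 0 fell, with a median log2 fold change of 0.48. Over all genes tested there, 3.64% rose and 4.04% fell. The epithelial cytokine gene Il17c rose from 0.0767 ± 0.0858 to 1.217 ± 0.415 CPM (SD, n = 3; log2 fold change 3.81, edgeR adjusted p = 0.0185). Il1f6 and Il1f9, which encode IL-36 alpha and IL-36 gamma, rose by log2 fold changes of 1.81 and 1.14 (0.00931 and 0.00575), and the feedback regulator Zc3h12a by 1.72 (0.00958). In IMQ+XYF against VAS+H2O, the same 4 and Il1b (3.79, adjusted p = 0.0164) rose, and Il17rd fell by 1.24 on the log2 scale (0.0463), where 3.05% of all genes were DEGs in the lower direction. In IMQ+H2O against VAS+H2O, Il1b had a log2 fold change of 4.11 (adjusted p = 0.0591) and Il17rd of -1.16 (0.175), so neither is shown to differ with XYF. Il1b had 7583, 384 and 1387 counts in IMQ+XYF and 214, 552 and 8322 in IMQ+H2O, highest in the 2 libraries rich in neutrophil transcripts. Il17a and Il22 had 0 counts in all 9 libraries and Il17f had 3 counts in 1 control library, and a count of 0 allows up to 0.0463 to 0.0990 CPM. Cebpb, picked after its values were seen because its product binds the C/EBP motif, was at 65.8 ± 3.70 CPM (SD, n = 3) for VAS+H2O, 122 ± 4.0 CPM for IMQ+H2O and 109 ± 3.43 CPM for IMQ+XYF. Cebpb had a log2 fold change of 0.88 under imiquimod with water (edgeR adjusted p = 0.00372), under the threshold of 2-fold. Cebpd, the other C/EBP gene of the inducer list, stood at 18.99 ± 10.22 CPM (SD, n = 3) for VAS+H2O. Its level was 20.97 ± 1.88 CPM for IMQ+H2O and 26.12 ± 3.69 CPM for IMQ+XYF. Imiquimod with water gave Cebpd a log2 fold change of 0.13 (edgeR adjusted p = 0.8185). A part of either gene in the rise of the members was not tested. None of the genes of these 5 lists was a DEG between IMQ+XYF and IMQ+H2O by edgeR. At an unadjusted edgeR p of 0.05, 1 gene of the WAP list and 2 of the inducer genes passed there, and 0 of the rest of these 5 lists. Of the marker lists, 5 of the 6 dermal fibroblast genes and all 4 cartilage genes tested passed there, against 966 of 17793 genes. Their median log2 fold changes were 1.45 and 2.74, and no gene of the other marker lists passed. Col9a1, a cartilage marker, was 1 of the 5 edgeR DEGs of all genes (log2 fold change 2.26, adjusted p = 0.0193).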

How the data were processed

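The 10 genes and the gene lists set beside them were chosen with earlier results of these data known. Total RNA of ear epidermis was made into TruSeq libraries and sequenced on an Illumina instrument. The libraries are described as strand-specific, but the study's methods name a TruSeq RNA kit without a statement on strand. According to the methods and the submitters' processing notes, reads were aligned with STAR 2.5 to GRCm38 (Ensembl annotation), and FastQC, StringTie, Cuffnorm and DESeq are named; the counting tool and its strand setting are not given in the sources used here. The authors deposited raw counts per gene, and no normalized value of theirs was used.

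Each comparison was fitted on its own 6 libraries in edgeR 4.0.16 (R 4.3.3) with TMM, filterByExpr and the quasi-likelihood test, with Benjamini-Hochberg adjustment over all genes tested. A DEG needed an adjusted p of 0.05 or less and a log2 fold change of 1 or more in size. CPM values used TMM factors over 9 libraries and the 18492 genes that passed the filter. Lengths are exon unions of the GENCODE annotation of GRCm38. Intervals are 95%. Named list genes were the called ones, at most 8 per list and comparison by adjusted p. Alternatives were DESeq2 1.42.0, RLE factors, other filters, all 9 libraries in 1 fit, a replicate block, each library left out, and adjusted p alone. No 2 replicate libraries agreed within sampling noise.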

Additional observations from a re-analysis of the deposited data

How the results depend on the processing

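Between IMQ+H2O and VAS+H2O, 7 members and 1383 genes were called, and with adjusted p alone 9 and 3986. With single libraries left out, 4 to 6 members and 711 to 1314 genes were called, fewest members without VAS+H2O replicate 1 and fewest genes without IMQ+H2O replicate 3 (711), then without VAS+H2O replicate 2 (717) and VAS+H2O replicate 1 (857). Slpi, Lcn2, Defb4 and Defb6 stayed called in each of those 6 fits. With at least 10 counts required in every library, 5 members were called, since Defb3 and Defb4 were then not tested. Between IMQ+XYF and VAS+H2O, 7 members and 1371 genes were called, and with adjusted p alone 9 and 5152. With single libraries left out, 6 to 7 members and 996 to 1350 genes were called, and the call of Defb3 was lost in 4 of the 6 fits (adjusted p 0.0525 to 0.0724).

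Between IMQ+XYF and IMQ+H2O, 0 members were called in every fit run. The number of genes went from 5 to 129 with DESeq2, 1 with all 9 libraries in 1 fit and 0 without the 2 libraries richest in neutrophil transcripts, and it was 0 to 5 with single libraries left out, the 5 being without IMQ+H2O replicate 3. Log2 fold changes with single libraries left out ran from -0.20 to 0.57 for Lcn2, -0.25 to 0.11 for Slpi, -0.14 to 0.075 for Wfdc5, -0.74 to 0.92 for Defb3 and -0.84 to 0.33 for Defb14. Without those 2 libraries, the values of Slpi, Defb3 and Defb14 were 0.019, 0.96 and 0.084. The cause of these sign changes was not tested.

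Same-numbered libraries did not deviate together (correlations of deviations from the group means between -0.133 and 0.105), so the numbers were not taken as pairs. With the replicate block, 6 members and 1100 genes were called between IMQ+H2O and VAS+H2O (Wfdc12 lost, adjusted p = 0.0656), 7 and 1113 between IMQ+XYF and VAS+H2O, and 0 genes between IMQ+XYF and IMQ+H2O, where the log2 fold change of Defb3 became 0.015.

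Depth limits Camp, Defb3 and Defb4, which lay at or near the floor in the control libraries, and 3 libraries per group limit the rest.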
